A study of Homo sapiens with 24 samples.

Results

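The BCL2 family apoptosis regulators described here are 10 genes: the survival genes BCL2, BCL2L1 and MCL1, the pore-forming effectors BAX and BAK1, and the BH3-only genes BCL2L11, PMAIP1, BBC3, BID and BIK. They were taken by gene symbol from tables of 60660 features, and each symbol was present in these tables as 1 feature. RNA was sequenced from PC3 and LNCaP, established human prostate cancer lines derived from a bone metastasis and a lymph node metastasis, in 24 libraries that form 8 groups of 3. Parental cells of each line were sampled without drug (parental control) and after 10 µM Acetalax for 4 h (parental Acetalax). Cells labelled as chronic-exposure (CE) derivatives were sampled in the same way (CE control and CE Acetalax). Acetalax (oxyphenisatin acetate) is a former laxative that the series studies for its activity against cancer cells that express the cation channel TRPM4. Per the labels, CE cells were made by passaging parental cells in rising drug concentrations until they were resistant, and were then kept for 2 weeks without the drug. CE controls thus had earlier exposure that parental controls had not. The series calls the triplicates biological but does not say that they came from separate cultures, so the p-values below measure the spread between these libraries, which may be partly technical. PC3 was grown in F-12 medium and LNCaP in RPMI-1640, and line and medium cannot be told apart.

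The BCL2 family controls the mitochondrial route to apoptosis. BAX and BAK1 encode proteins that open the outer mitochondrial membrane and release cytochrome c, which assembles with APAF1 into the apoptosome that activates caspases. BCL2, BCL-xL (the main protein of BCL2L1) and MCL1 hold the effectors back. BH3-only proteins such as BIM (BCL2L11), NOXA (PMAIP1), PUMA (BBC3), BID and BIK bind the guardians or the effectors and tip the balance toward pore opening. PMAIP1 and BBC3 are known transcriptional targets of the stress-induced factors ATF4 and CHOP (DDIT3). The proteins are also regulated by turnover, cleavage and binding, which RNA levels do not show.

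Levels are given in TPM, transcripts scaled to a fixed library total, which are also scaled for gene length and allow genes to be compared with each other. Fold changes are log2 values from edgeR's quasi-likelihood test on read counts, with p-values adjusted by the Benjamini-Hochberg method over all genes tested. The ± value is a standard error derived as the absolute log2 change divided by the square root of the test's F statistic. For genes of few counts it can be smaller than the counting error. A gene is said to have risen or fallen where the adjusted p was under 0.05. Each comparison is of 3 libraries against 3, unless libraries are said to be left out. The share of all tested genes that passed the same test in the same comparison is printed beside each count of BCL2 family genes, because in some comparisons most genes passed. For groups whose libraries do not overlap, no such share over all genes was computed. Lack of overlap is thus a description of the libraries and not a trait particular to these genes.

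Total counts per library lay between 40160832 and 57728014. The CE libraries went against the label of an epithelial prostate line. The summed level of 5 epithelial markers was 2466 to 2820 TPM in PC3 parental controls and 23.1 to 24.8 TPM in PC3 CE controls. It was 1071 to 1225 TPM in LNCaP parental controls and 6.70 to 8.29 TPM in LNCaP CE controls, where EPCAM, CDH1, KRT8 and KRT19 were each below 1 TPM. A list of 5 luminal prostate markers stood at 4037 to 6682 TPM in LNCaP parental controls and at 1.19 to 2.86 TPM in LNCaP CE controls. A list of 5 fibroblast markers stood at 30.8 to 38.5 TPM and 2142 to 2154 TPM in PC3 parental and CE controls. In those of LNCaP it stood at 8.42 to 22.3 TPM and 537 to 571 TPM. Over 18745 genes, which are not independent replicates, the mean control profile of CE cells labelled PC3 had a correlation of 0.948 with that of CE cells labelled LNCaP, and of 0.758 with its own parental controls, and the CE profile of LNCaP had 0.791 with its own. With the parental controls of the other line, the CE control profile of PC3 had 0.7835 and that of LNCaP 0.7546. Whether the CE cells descend from the lines on their labels was not tested, so every CE value below belongs to the libraries so labelled. In these bulk samples a change in the mix of cells and a change in RNA per cell cannot be told apart. A further 3 libraries stood apart from the others of their group: LNCaP parental control replicate 2, LNCaP parental Acetalax replicate 3 and PC3 CE Acetalax replicate 1. DDIT3, the stress gene that encodes CHOP, stood in them at 26.4, 51.4 and 936 TPM, against 264 and 341, 274 and 231, and 43.0 and 22.7 TPM in the other libraries of the same groups. Where leaving all 3 out changed the call of any of the 10 genes, the value without them stands beside the result. No numeric rule picked these 3 libraries, and their groups then hold 2 libraries each. Leaving them out also changes the spread estimate that the groups of a fit share. Calls can thus change in groups that lost no library, and in every comparison more of all genes passed. DDIT3 encodes a factor known to act on PMAIP1 and BBC3, so such p-values are not independent support for these genes.

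Promoter sequences were at hand for 8 of the 10 genes (RefSeq, GRCh38.p14, 250 bases before to 50 after the annotated start). Those of PMAIP1, BBC3 and BAX are printed because these genes showed the largest fall in CE libraries, the most frequent rise with Acetalax and the largest rise among the effectors. Capitals mark matches on either strand to 4 motifs: the E-box CACGTG, the cyclic AMP response half-site ACGTCA, the GC box GGGCGG and the AP-1 site TGANTCA.
PMAIP1, chr18:59899746-59900045, plus strand: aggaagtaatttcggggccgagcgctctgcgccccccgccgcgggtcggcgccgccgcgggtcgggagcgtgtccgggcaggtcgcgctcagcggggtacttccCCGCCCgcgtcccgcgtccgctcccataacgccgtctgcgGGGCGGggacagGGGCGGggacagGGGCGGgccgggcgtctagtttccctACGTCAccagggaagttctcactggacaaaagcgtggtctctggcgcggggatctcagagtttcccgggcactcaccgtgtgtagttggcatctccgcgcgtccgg
BBC3, chr19:47232618-47232917, minus strand: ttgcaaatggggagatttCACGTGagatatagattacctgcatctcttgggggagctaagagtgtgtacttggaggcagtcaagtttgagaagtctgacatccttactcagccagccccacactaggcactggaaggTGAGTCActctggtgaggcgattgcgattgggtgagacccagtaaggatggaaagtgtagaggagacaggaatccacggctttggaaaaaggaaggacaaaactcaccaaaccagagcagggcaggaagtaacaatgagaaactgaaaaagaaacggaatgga
BAX, chr19:48954625-48954924, plus strand: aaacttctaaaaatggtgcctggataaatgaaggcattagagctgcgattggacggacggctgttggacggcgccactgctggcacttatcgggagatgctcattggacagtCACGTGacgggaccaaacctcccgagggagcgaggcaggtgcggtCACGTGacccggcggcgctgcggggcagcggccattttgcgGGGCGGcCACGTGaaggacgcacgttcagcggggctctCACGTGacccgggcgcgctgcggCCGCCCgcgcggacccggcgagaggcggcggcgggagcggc
The PMAIP1 window held 1 cyclic AMP response half-site and 4 GC boxes and had 71.3% G and C. The BBC3 window held 1 E-box and 1 AP-1 match and had 48.0% G and C. The BAX window held 4 E-boxes and 2 GC boxes. Among all 35116 promoter windows of the table, 7.26% held the E-box, 7.98% the half-site, 45.0% the GC box and 7.71% the AP-1 match, and the median G and C content was 58.7%. These matches describe the letters only and do not show that a factor binds there.

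**Figure D1:**
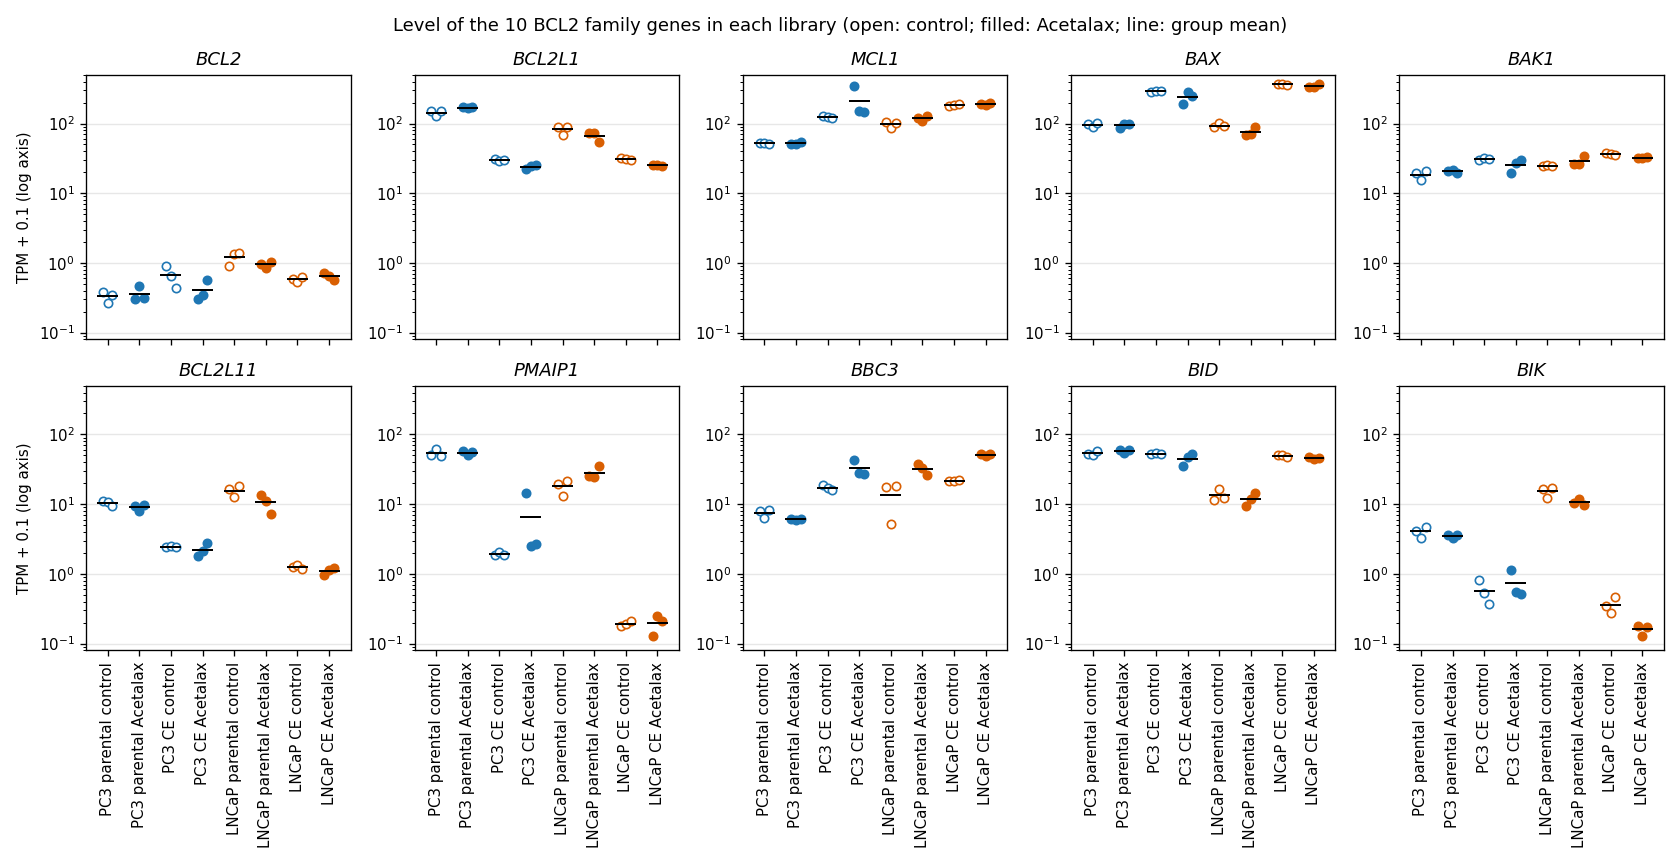
Level of each of the 10 genes in every library, as TPM + 0.1 on a log axis, with open points for controls, filled points for Acetalax and a line at the group mean (PC3 blue, LNCaP orange). PMAIP1 and BIK spanned the widest range of group means (588 and 254 times), and BAK1 the narrowest (1.98 times).

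In parental controls the leading survival gene differed between the lines. BCL2L1 (ENSG00000171552.14, GRCh38 chromosome 20, 31664452 to 31723989, minus strand) was the most abundant member in PC3, at 149, 128 and 151 TPM in the 3 parental controls, and stood at 89.3, 68.8 and 90.3 TPM in those of LNCaP. MCL1 (ENSG00000143384.14, chromosome 1, 150574551 to 150579738, minus strand), a survival gene with a short-lived protein, stood at 52.0, 52.8 and 51.4 TPM in PC3 and had the highest mean of the members in LNCaP, at 105, 85.7 and 101 TPM, although BAX exceeded it in replicate 2. No PC3 library overlapped with an LNCaP library for either gene. BCL2 (ENSG00000171791.14, chromosome 18, 63123346 to 63320128, minus strand), the founding gene of the family, was the least abundant member in both, at 0.28, 0.17 and 0.25 TPM in PC3 and 0.80, 1.22 and 1.30 TPM in LNCaP. Against PC3, LNCaP parental controls had lower BCL2L1 (-0.80 ± 0.09, adjusted p = 1.91e-07) and higher MCL1 (0.73 ± 0.21, adjusted p = 0.00372) and BCL2 (2.11 ± 0.32, adjusted p = 6.06e-06).

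All 10 genes passed in this comparison of parental lines, 6 higher and 4 lower in LNCaP, where 70.3% of all tested genes passed (35.5% higher and 34.7% lower). BID (ENSG00000015475.19, chromosome 22, 17734138 to 17774770, minus strand), which links death receptors to mitochondria once caspase-8 has cut it, was at 52.95, 51.2 and 58.6 TPM in PC3 and 11.4, 16.6 and 12.3 TPM in LNCaP (-1.94 ± 0.17, adjusted p = 2.23e-09). PMAIP1 (ENSG00000141682.12, chromosome 18, 59899948 to 59904306, plus strand), whose product NOXA binds MCL1, was at 49.97, 61.3 and 49.7 TPM in PC3 and 19.6, 13.1 and 21.4 TPM in LNCaP (-1.58 ± 0.42, adjusted p = 0.0025). BIK (ENSG00000100290.3, chromosome 22, 43110748 to 43129712, plus strand), a BH3-only gene whose product resides mainly at the endoplasmic reticulum, was at 4.07, 3.19 and 4.62 TPM in PC3 and 16.6, 12.3 and 16.9 TPM in LNCaP (1.90 ± 0.28, adjusted p = 4.53e-06). For each of these 3 genes the libraries of the lines did not overlap.

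BCL2L11 (ENSG00000153094.24, chromosome 2, 111119378 to 111168447, plus strand), which encodes BIM, and BAK1 (ENSG00000030110.13, chromosome 6, 33572547 to 33580293, minus strand) differed less, at 0.65 ± 0.15 and 0.40 ± 0.15 (adjusted p = 7.87e-04 and 0.0213), both higher in LNCaP. The BAK1 call was lost without PC3 parental control replicate 2 (adjusted p = 0.123) or LNCaP parental control replicate 2 (adjusted p = 0.0758). BBC3 (ENSG00000105327.18, chromosome 19, 47220822 to 47232766, minus strand), which encodes PUMA, was at 7.99, 6.16 and 8.18 TPM in PC3 and at 17.3, 5.03 and 18.0 TPM in LNCaP, with the low value in LNCaP parental control replicate 2, so that the groups overlapped. Its difference of 0.84 ± 0.27 (adjusted p = 0.00895) was lost without LNCaP parental control replicate 1 (adjusted p = 0.0594) or 3 (adjusted p = 0.0714), and it was 1.21 without the libraries that stood apart (adjusted p = 4.26e-11), where 76.6% of all genes passed. BAX (ENSG00000087088.20, chromosome 19, 48954815 to 48961798, plus strand) passed at -0.38 ± 0.12 on counts (adjusted p = 0.0107), yet its TPM overlapped, at 96.8, 88.3 and 101 in PC3 and 88.8, 100.2 and 91.1 in LNCaP. On log2(TPM + 1), limma gave -0.03 for BAX (adjusted p = 0.824), and on counts the call was lost without PC3 parental control replicate 3 (adjusted p = 0.0633). Unlike counts, TPM are also divided by the transcript length estimated in each library, so for BAX both values are also given where CE and parental controls are compared.

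The CE libraries differed from the parental controls of their line in most members. In PC3, 8 of 10 genes passed, 4 higher and 4 lower, where 77.5% of all tested genes passed (38.5% higher and 39% lower). In LNCaP, all 10 passed, 5 higher and 5 lower, where 75.3% of all genes passed (36% higher and 39.3% lower). The share of members that passed was thus near the background in PC3, and the size and direction of each gene are described here rather than the count. The median absolute log2 change of the 10 genes was 1.19 in PC3 and 1.60 in LNCaP, against 1.23 and 1.18 over all tested genes.

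**Figure D2:**
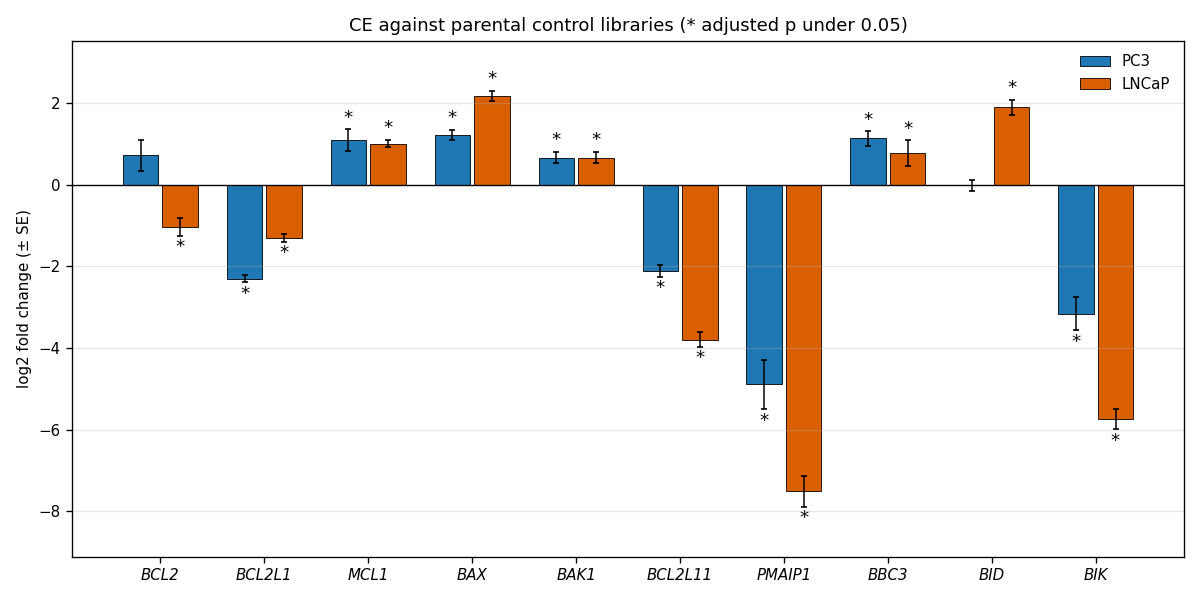
Log2 fold change of CE controls against parental controls of the same line, with standard errors, for the 10 genes in PC3 and LNCaP; asterisks mark adjusted p under 0.05. MCL1, BAX, BAK1 and BBC3 were higher and BCL2L1, BCL2L11, PMAIP1 and BIK lower in the CE libraries of both lines, while BID rose and BCL2 fell in LNCaP and neither passed in PC3.

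Among survival genes, BCL2L1 and MCL1 moved in opposite directions. BCL2L1 was at 30.7, 29.04 and 29.7 TPM in PC3 CE controls and at 31.8, 30.5 and 29.9 TPM in LNCaP CE controls, all below every parental control. It fell by 2.30 ± 0.09 on the log2 scale in PC3 (adjusted p = 4.41e-10) and by 1.30 ± 0.09 in LNCaP (adjusted p = 2.59e-07). MCL1 was at 127, 124 and 121 TPM in PC3 CE controls and 176, 187 and 192 TPM in those of LNCaP, above every parental control. It rose by 1.10 ± 0.27 (adjusted p = 0.00246) and 1.02 ± 0.09 (adjusted p = 1.33e-06). BCL2 stayed scarce. It was at 0.79, 0.55 and 0.34 TPM in PC3 CE controls, a log2 value of 0.72 ± 0.37 that did not pass (adjusted p = 0.0954) but did without PC3 CE Acetalax replicate 1 (0.72, adjusted p = 0.0378), where 84.4% of all genes passed. It fell by 1.03 ± 0.22 in LNCaP (adjusted p = 0.00131), to 0.49, 0.44 and 0.53 TPM.

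The ratio of MCL1 to BCL2L1 in TPM, computed in each library and not tested, described this exchange. It was 0.368 ± 0.0390 (SD, n = 3) in PC3 parental controls and 4.17 ± 0.107 in PC3 CE controls, and 1.18 ± 0.0617 and 6.03 ± 0.442 in LNCaP. PC3 parental libraries were the only group pair in which BCL2L1 exceeded MCL1. The summed TPM of the 3 survival genes changed far less than the ratio, from 195 ± 12.1 to 155 ± 3.85 TPM in PC3 and from 181 ± 22.0 to 216 ± 6.89 TPM in LNCaP.

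**Figure D3:**
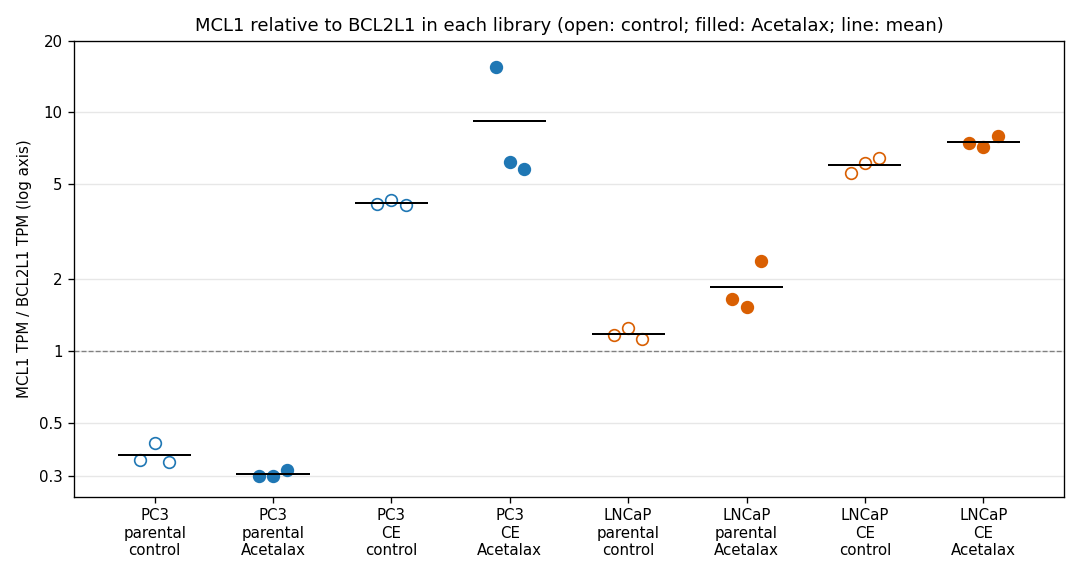
Ratio of MCL1 TPM to BCL2L1 TPM in each library on a log axis, with open points for controls, filled points for Acetalax, a line at the mean of 3 libraries and a dashed line at equal levels. The parental PC3 libraries lie below 1, the parental LNCaP libraries between 1.12 and 2.38, and the CE libraries between 4.07 and 15.5.

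Both effectors were higher in CE libraries. BAX was the most abundant member in CE controls, at 288, 295 and 293 TPM in PC3 CE controls and 369.2, 369.5 and 354 TPM in LNCaP CE controls. The highest parental control was at 101 TPM. On counts BAX rose by 1.23 ± 0.12 in PC3 (adjusted p = 1.70e-06) and by 2.18 ± 0.13 in LNCaP (adjusted p = 5.00e-08), while the log2 ratios of mean TPM were 1.61 and 1.96. BAK1, the effector that resides in the outer mitochondrial membrane, was at 30.0, 31.8 and 31.2 TPM in PC3 CE controls against 19.4, 15.3 and 20.6 TPM in parental controls, and at 37.7, 36.4 and 35.6 TPM against 24.5, 25.4 and 24.1 TPM in LNCaP. Its rise was 0.67 ± 0.15 in PC3 (adjusted p = 0.00124) and 0.67 ± 0.14 in LNCaP (adjusted p = 0.00126), with no overlap between groups. The summed TPM of BAX and BAK1 was 114 ± 9.37 in PC3 parental controls and 323 ± 4.72 in PC3 CE controls, and 118 ± 6.59 and 401 ± 9.56 in those of LNCaP.

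BH3-only genes did not move together. PMAIP1 had the largest difference of any member. It was at 1.78, 1.93 and 1.76 TPM in PC3 CE controls and at 0.08, 0.09 and 0.11 TPM in LNCaP CE controls, where the libraries held 4, 4 and 6 counts against 985, 848 and 1096 in the parental controls. It fell by 4.89 ± 0.61 in PC3 (adjusted p = 1.47e-05) and by 7.51 ± 0.38 in LNCaP (adjusted p = 1.24e-08). From the summed counts of 14 and 2929, scaled by library totals, the LNCaP CE level was 0.00478 of the parental level (exact 95% counting interval 0.00261 to 0.00803).

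BIK, the second widest in range, was at 0.71, 0.43 and 0.27 TPM in PC3 CE controls and at 0.25, 0.17 and 0.36 TPM in LNCaP CE controls. It fell by 3.16 ± 0.41 (adjusted p = 2.04e-05) and 5.74 ± 0.25 (adjusted p = 3.45e-09). In LNCaP the summed counts were 19 and 1160, a ratio of 0.0164 (exact 95% counting interval 0.00982 to 0.0257). That interval is wider than the ± value of the LNCaP fit implies. BCL2L11 was at 2.29, 2.40 and 2.32 TPM in PC3 CE controls against 10.9, 10.6 and 9.46 TPM in parental controls, and at 1.16, 1.25 and 1.09 TPM against 16.3, 12.5 and 17.9 TPM in LNCaP. It fell by 2.11 ± 0.14 (adjusted p = 5.05e-08) and 3.80 ± 0.18 (adjusted p = 6.37e-09). For PMAIP1, BIK and BCL2L11, every CE control lay below every parental control of its line, and the share of all genes with such a gap was not computed.

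BBC3 was higher in CE controls of PC3, at 18.6, 17.1 and 16.0 TPM, none of which overlapped with the parental controls (1.14 ± 0.18, adjusted p = 1.09e-04). In LNCaP CE controls it was at 21.1, 21.3 and 22.0 TPM, with a difference of 0.78 ± 0.31 (adjusted p = 0.0389). That call was weak: leaving out any of 8 of the 12 LNCaP libraries moved its adjusted p above the threshold, up to 0.0776, and without the libraries that stood apart the difference was 0.38 (adjusted p = 7.99e-05), where 84.8% of all genes passed. BID was at 51.8, 54.0 and 52.5 TPM in PC3 CE controls, inside the range of the parental controls (-0.01 ± 0.13, 95% interval -0.30 to 0.27), and at 50.5, 50.4 and 47.6 TPM in LNCaP CE controls, a rise of 1.90 ± 0.19 (adjusted p = 4.07e-06). For BID the CE controls of the lines did not pass against each other (-0.05 ± 0.16, 95% interval -0.39 to 0.28).

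The change from parental to CE differed between the lines for 7 of the 10 genes, in a comparison chosen after the data were seen, where 56.8% of all tested genes passed (25.7% more positive and 31.2% more negative in LNCaP). The LNCaP change was more negative for PMAIP1 (-2.64 ± 0.89, adjusted p = 0.0158), BIK (-2.61 ± 0.49, adjusted p = 1.28e-04), BCL2 (-1.77 ± 0.44, adjusted p = 0.00169) and BCL2L11 (-1.72 ± 0.22, adjusted p = 1.33e-06). It was more positive for BID (1.89 ± 0.23, adjusted p = 5.76e-07), BCL2L1 (0.97 ± 0.13, adjusted p = 2.20e-06) and BAX (0.93 ± 0.18, adjusted p = 1.30e-04). MCL1 (95% interval -0.72 to 0.49), BAK1 (-0.46 to 0.41) and BBC3 (-1.17 to 0.39) did not pass. Without the libraries that stood apart, MCL1 (-0.20, adjusted p = 0.0310) and BBC3 (-0.76, adjusted p = 9.29e-06) passed as well, where 66% of all genes passed, and BBC3 also passed without LNCaP parental control replicate 2 alone (-0.76, adjusted p = 0.00477). The PMAIP1 difference depended on the scale, with limma on log2(TPM + 1) giving 0.17 (adjusted p = 0.779), a scale that understates changes of genes near 0 TPM, and the BAX difference was 0.35 by the same fit (adjusted p = 0.0518).

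The CE controls of the lines were also set against each other. Against PC3 CE, LNCaP CE controls passed for 5 of 10 genes, where 41% of all tested genes passed (16.7% higher and 24.2% lower): MCL1 (0.62 ± 0.21, adjusted p = 0.0207), BAX (0.55 ± 0.12, adjusted p = 0.00122, with a log2 ratio of mean TPM of 0.32) and BAK1 (0.37 ± 0.15, adjusted p = 0.049) were higher, and BCL2L11 (-1.07 ± 0.16, adjusted p = 2.21e-05) and PMAIP1 (-4.22 ± 0.73, adjusted p = 8.68e-05) lower. The median absolute log2 difference of the 10 genes was 0.50 between CE controls and 0.82 between parental controls, against 0.55 and 1.19 over all tested genes, and these medians were not tested. The BAK1 call was lost when any of 16 single libraries was left out, with adjusted p up to 0.132. MCL1 was lost without PC3 CE control replicate 1 (adjusted p = 0.0601) or 3 (adjusted p = 0.0544), or LNCaP CE control replicate 3 (adjusted p = 0.0538). Without the libraries that stood apart, BBC3 (0.45, adjusted p = 3.37e-05) and BCL2L1 (0.17, adjusted p = 0.0108) were higher in LNCaP CE as well, where 58.8% of all genes passed.

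The response to Acetalax was asked in each of the 4 kinds of cells. BBC3 was the member that rose most often: it passed in 3 of them, and in PC3 parental cells its value was in the other direction. In LNCaP parental cells BBC3 was at 37.8, 33.0 and 26.0 TPM with Acetalax against 17.3, 5.03 and 18.0 TPM in controls (1.34 ± 0.31, adjusted p = 0.0232). In LNCaP CE cells it was at 52.3, 48.4 and 53.1 TPM against 21.1, 21.3 and 22.0 TPM (1.44 ± 0.31, adjusted p = 0.0195). In PC3 CE cells it was at 43.6, 28.2 and 26.9 TPM against 18.6, 17.1 and 16.0 TPM (1.00 ± 0.18, adjusted p = 0.00724). In each of these 3 kinds of cells, every Acetalax library lay above every control.

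In PC3 parental cells BBC3 was at 6.06, 5.75 and 6.12 TPM with Acetalax, below the controls at 7.99, 6.16 and 8.18 TPM. The difference of -0.48 ± 0.18 did not pass (adjusted p = 0.1501), but it did with only these groups fitted (-0.48, adjusted p = 0.0157). The response of PC3 CE cells exceeded that of PC3 parental cells by 1.49 ± 0.25 (adjusted p = 0.00607). That of LNCaP parental cells exceeded that of PC3 parental cells by 1.83 ± 0.38 (adjusted p = 0.00585), a call that fitting only the groups compared ended (1.82, adjusted p = 0.0580). These 2 differences share the PC3 parental libraries. The LNCaP parental call was lost without Acetalax replicate 1 (adjusted p = 0.0743) or 2 (adjusted p = 0.0641), and fitting only the groups compared ended it (adjusted p = 0.215), as it did in PC3 CE (adjusted p = 0.0795). In LNCaP CE the call was lost without any 1 of the 6 libraries compared (adjusted p = 0.0602 to 0.0814), and by limma on log2(TPM + 1) (1.22, adjusted p = 0.0532). Without the 3 libraries that stood apart, BBC3 differed by 1.05 in LNCaP parental cells (2 libraries against 2, adjusted p = 4.43e-08), 1.45 in LNCaP CE (adjusted p = 9.79e-11), 0.75 in PC3 CE (adjusted p = 1.28e-04) and -0.49 in PC3 parental cells (adjusted p = 0.00366). The LNCaP CE and PC3 parental groups lost no library, so there it was mainly the spread estimate that changed.

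**Figure D4:**
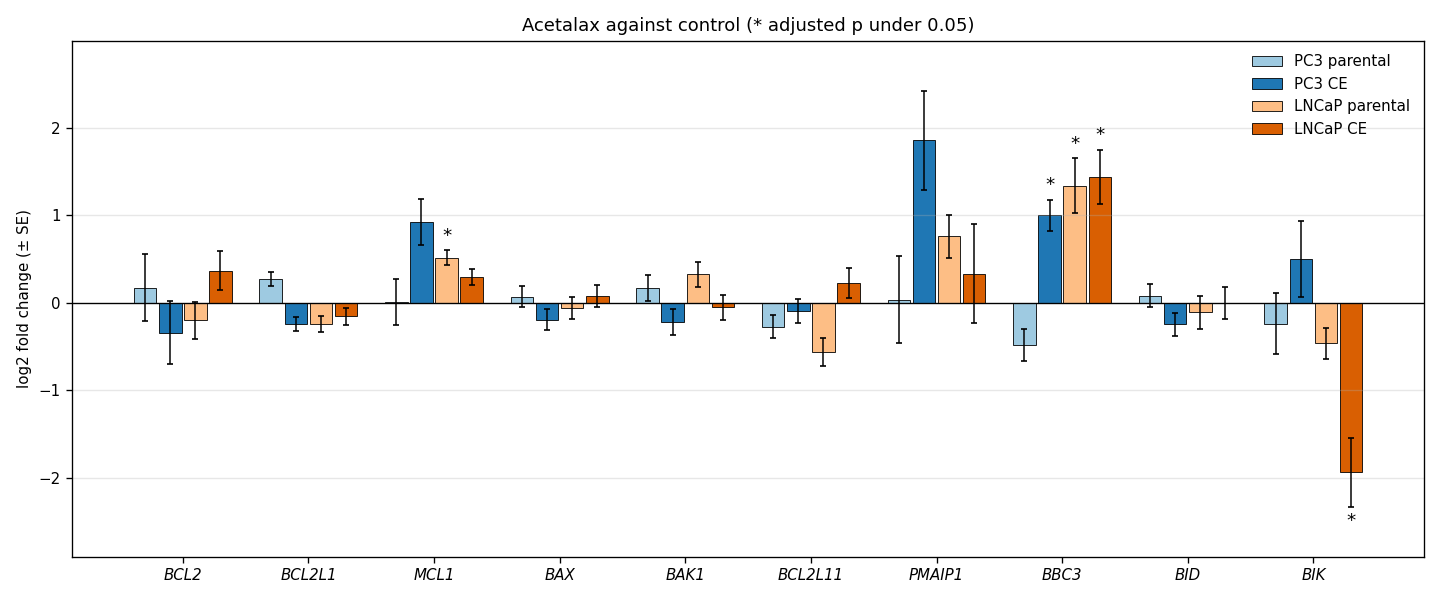
Log2 fold change of Acetalax against control with standard errors for the 10 genes in the 4 kinds of cells; asterisks mark adjusted p under 0.05. BBC3 is higher in PC3 CE, LNCaP parental and LNCaP CE cells (1.00 to 1.44) and at -0.48 in PC3 parental cells, and the wide error bars of MCL1 and PMAIP1 in PC3 include PC3 CE Acetalax replicate 1.

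MCL1 rose with Acetalax in LNCaP parental cells, from 105, 85.7 and 101 TPM to 122, 110.2 and 127 TPM (0.52 ± 0.09, adjusted p = 0.00479), with no overlap, although fitting only these groups ended the call (adjusted p = 0.125). Limma on log2(TPM + 1) without a filter also ended it (0.30, adjusted p = 0.0748). In PC3 CE cells MCL1 was at 343, 151 and 147 TPM against 127, 124 and 121 TPM in controls. No library overlapped, but the first was more than 2 times the others, and the value of 0.93 ± 0.26 did not pass (adjusted p = 0.0537). Without that library the difference was smaller and passed (0.39, adjusted p = 2.96e-04), and it also passed without replicate 2 (1.12, adjusted p = 0.0238) or 3 (1.15, adjusted p = 0.0161), and with DESeq2 (0.93, adjusted p = 0.00902). In LNCaP CE cells MCL1 was at 188, 181 and 195 TPM against 176, 187 and 192 TPM, overlapping, with 0.30 ± 0.09 on counts (adjusted p = 0.0703). That value passed with DESeq2 (0.31, adjusted p = 0.0164), with only these groups fitted (0.29, adjusted p = 5.18e-07) and without the libraries that stood apart (0.30, adjusted p = 1.23e-04). All of these fits used counts. The mean TPM of MCL1 was 185 in LNCaP CE controls and 188 with Acetalax, and limma on log2(TPM + 1) called 0 of the 9 genes tested. In PC3 parental cells MCL1 was at 51.2, 49.9 and 53.9 TPM against 52.0, 52.8 and 51.4 TPM (0.02 ± 0.26, 95% interval -0.56 to 0.59).

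PMAIP1 and BCL2L1 gave smaller or less certain differences. PMAIP1 in PC3 CE Acetalax libraries was at 14.3, 2.39 and 2.59 TPM against 1.78, 1.93 and 1.76 TPM, again with replicate 1 highest (1.86 ± 0.57, adjusted p = 0.0669), and without that library the difference was 0.49 (adjusted p = 0.0237). Without replicate 2 or 3 it was 2.25 (adjusted p = 0.0213) or 2.24 (adjusted p = 0.0209), and DESeq2 gave 1.86 (adjusted p = 0.0260). In the same library DDIT3 stood at 936 TPM and ATF3, another stress-induced factor, at 311 TPM, against 10.2 and 3.85 TPM of ATF3 in replicates 2 and 3, and their part in the PMAIP1 and MCL1 values was not tested. In LNCaP parental cells PMAIP1 was at 25.1, 24.4 and 34.8 TPM against 19.6, 13.1 and 21.4 TPM (0.76 ± 0.24, adjusted p = 0.0864). It passed there with DESeq2 (0.76, adjusted p = 0.0350) and, at less than that size, without the libraries that stood apart (0.36, adjusted p = 0.0199). In PC3 parental cells it was at 57.5, 51.2 and 55.9 TPM against 49.97, 61.3 and 49.7 TPM (0.04 ± 0.50), and in LNCaP CE the libraries held 2, 10 and 7 counts against 4, 4 and 6.

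BCL2L1 was at 171, 166 and 170.4 TPM in PC3 parental Acetalax libraries, above the controls at 149, 128 and 151 TPM, but did not pass (0.28 ± 0.08, adjusted p = 0.0706). The same value passed with DESeq2 (adjusted p = 0.0149), with only these groups fitted (adjusted p = 0.0191) and without the libraries that stood apart (adjusted p = 0.00372). None of the libraries that stood apart is in this comparison, so in that last fit only the shared spread estimate changed. It was at 22.1, 24.5 and 25.3 TPM against 30.7, 29.04 and 29.7 TPM in PC3 CE (-0.24 ± 0.08, adjusted p = 0.1004), at 73.9, 71.9 and 53.5 TPM against 89.3, 68.8 and 90.3 TPM in LNCaP parental cells (-0.24 ± 0.09, adjusted p = 0.161), and at 25.4, 25.2 and 24.5 TPM against 31.8, 30.5 and 29.9 TPM in LNCaP CE (-0.15 ± 0.09, adjusted p = 0.416). The LNCaP values passed without the libraries that stood apart, at -0.21 (adjusted p = 0.00383) in parental and -0.14 (adjusted p = 0.0146) in CE cells. The response in PC3 parental cells differed from that in PC3 CE by -0.52 ± 0.12 as CE minus parental (adjusted p = 0.0225) and from that in LNCaP parental cells by -0.51 ± 0.13 as LNCaP minus PC3 (adjusted p = 0.0259). Each of these differences was lost when any of 7 single libraries was left out (adjusted p = 0.0503 to 0.0685, and 0.0531 to 0.08004), among them all 3 PC3 parental Acetalax libraries. The difference between lines was also lost with only the groups compared (adjusted p = 0.120) and without the low-count filter (adjusted p = 0.121), and the one within PC3 without that filter (adjusted p = 0.0614).

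BIK was called lower in LNCaP CE cells, on few reads. The Acetalax libraries held 2, 1 and 2 counts and the controls 6, 4 and 9, so the groups did not overlap (-1.93 ± 0.39, adjusted p = 0.0333). No LNCaP CE library reached the filter's minimum count of 10 for BIK. The gene was tested through the LNCaP parental libraries, which held 255 to 408 counts. With only the LNCaP CE groups fitted, 8 of the 10 genes were tested. At these counts the ± value understates the counting error. The ratio of the summed counts, scaled by library totals, was 0.231 with an exact 95% counting interval of 0.0673 to 0.639, which covers counting error only and was computed after the low counts were seen. Leaving out any of 5 of the 6 libraries ended the call (adjusted p = 0.0775 to 0.209), as did limma on log2(TPM + 1) (-0.25, adjusted p = 0.263). In LNCaP parental cells BIK was at 10.4, 11.6 and 9.63 TPM against 16.6, 12.3 and 16.9 TPM (-0.46 ± 0.18, adjusted p = 0.168). That value passed by limma on log2(TPM + 1) (-0.49, adjusted p = 0.0319) and without the libraries that stood apart (-0.54, adjusted p = 0.0213). The difference between the BIK responses of LNCaP CE and parental cells did not pass (adjusted p = 0.261).

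BCL2L11 in LNCaP parental cells lay at the threshold, at 13.5, 10.9 and 7.14 TPM against 16.3, 12.5 and 17.9 TPM (-0.56 ± 0.16, adjusted p = 0.0501), and it was at -0.27 ± 0.13, -0.09 ± 0.14 and 0.22 ± 0.17 in PC3 parental, PC3 CE and LNCaP CE cells (adjusted p = 0.279, 0.684 and 0.537). In LNCaP CE its mean TPM went the other way from the counts, from 1.17 in controls to 0.99 with Acetalax. Without the libraries that stood apart BCL2L11 passed in LNCaP parental (-0.49, adjusted p = 5.27e-04) and PC3 parental cells (-0.27, adjusted p = 0.0185), and DESeq2 called it in LNCaP parental cells (-0.55, adjusted p = 0.0245). With only the groups compared it passed in PC3 parental cells (-0.27, adjusted p = 0.0297). BAX, BAK1, BID and BCL2 did not pass in any of the 4 kinds of cells, with log2 values from -0.34 to 0.37. BAK1 passed in LNCaP parental cells without the libraries that stood apart (0.20, adjusted p = 0.0189). In PC3 CE the TPM of BAX, BAK1 and BID were lower in all Acetalax libraries than in all controls, the lowest being replicate 1 at 193, 19.7 and 35.5 TPM. Such gaps were not particular to PC3 CE. BAK1 and BID were also lower in all LNCaP CE Acetalax libraries. In LNCaP parental cells all Acetalax libraries were lower for BAX and higher for BAK1.

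By count, 0 of 10 genes passed in PC3 parental cells with edgeR, where 7.8% of all genes passed. At an unadjusted p under 0.05 there were 2, BCL2L1 and BBC3, DESeq2 called 1, and limma on log2(TPM + 1) called 0. In PC3 CE 1 gene passed (8.15% of all genes), in LNCaP parental cells 2 (8.45%) and in LNCaP CE 2 (7.4%). The 2 in LNCaP CE include BIK, on the few reads given above. Without the 3 libraries that stood apart, 7 of 10 passed in LNCaP parental cells, 4 higher (BBC3, MCL1, PMAIP1 and BAK1) and 3 lower (BCL2L1, BCL2L11 and BIK), where 26.6% of all genes passed. That fit sets 2 LNCaP parental Acetalax libraries against 2 controls. In PC3 parental and PC3 CE cells 3 passed in each (27.3% and 16.4% of all genes), and in LNCaP CE 4 (34.1%).

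The difference of the responses between CE and parental cells was called for 2 genes in PC3, BBC3 and BCL2L1 (8.03% of all genes), and for 0 in LNCaP with edgeR, where 1.28% of all genes passed. In LNCaP 2 had an unadjusted p under 0.05 (BCL2L11 and BIK), and DESeq2 and limma on log2(TPM + 1) called 0. Between lines, 2 genes passed for parental cells, BBC3 and BCL2L1 (5.05% of all genes), and 0 for CE cells, where 0.0774% of all genes passed, 1 gene (BIK) had an unadjusted p under 0.05, and DESeq2 and limma called 0. The interval of the difference of the BBC3 responses was -0.86 to 1.06 between LNCaP CE and LNCaP parental cells and -0.30 to 1.24 between LNCaP CE and PC3 CE cells. Without the libraries that stood apart, 4 genes passed in LNCaP as CE minus parental (19.3% of all genes): BCL2L11 (0.73, adjusted p = 0.00202), BBC3 (0.40, adjusted p = 0.00583), BAX (0.25, adjusted p = 0.0265) and BAK1 (-0.24, adjusted p = 0.0344). The BCL2L11 value is on counts, while its mean TPM in LNCaP CE was 1.17 in controls and 0.99 with Acetalax. Without the same libraries, the BBC3 response was also larger in LNCaP CE than in PC3 CE cells (0.71, adjusted p = 8.18e-04, with 3.51% called), and that of MCL1 larger in LNCaP parental than in PC3 parental cells (0.38, adjusted p = 0.00181, with 19.3% called). In PC3 the differences of MCL1 (0.37, adjusted p = 0.00308) and PMAIP1 (0.46, adjusted p = 0.0496) passed too (22.5% called).

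The other genes of the pathway were described from a list of 70 in 9 groups. In CE against parental controls, 25 of the 66 tested rose and 21 fell in PC3, with a median log2 change of 0.01. In LNCaP 18 of 67 rose and 25 fell, with a median of -0.14. The medians over all genes were -0.01 and -0.06. In the same comparisons 77.5% and 75.3% of all tested genes passed.

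**Figure D5:**
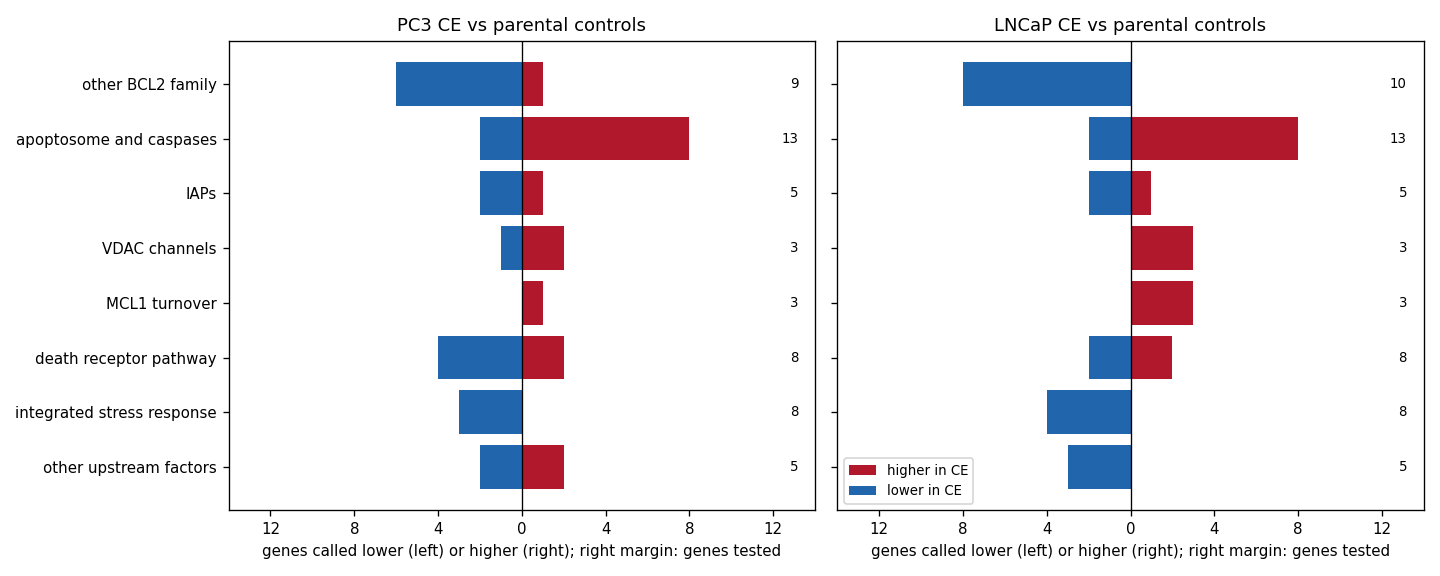
Number of genes in each of 8 pathway lists called higher (red, right) or lower (blue, left) in CE against parental controls of PC3 and LNCaP, with the number tested in the right margin. In the list of apoptosome genes and caspases 8 of 13 were higher in each line, and among the other BCL2 family genes 6 of 9 and 8 of 10 were lower. Of all tested genes, 38.5% were higher and 39% lower in PC3, and 36% higher and 39.3% lower in LNCaP.

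Downstream of the mitochondrion, 8 of 13 genes of the apoptosome and caspase list rose and 2 fell in each line. Of all tested genes, 38.5% rose and 39% fell in PC3, and 36% rose and 39.3% fell in LNCaP. The share of this list that passed in either direction was near that of all genes. APAF1, the scaffold of the apoptosome, was at 2.83, 2.63 and 2.17 TPM in PC3 parental controls and 13.9, 14.6 and 13.1 TPM in PC3 CE controls (2.45 ± 0.11, adjusted p = 1.55e-09), and rose by 1.60 ± 0.13 in LNCaP (adjusted p = 7.69e-07). CASP8, the initiator that cuts BID, rose by 1.30 ± 0.21 in LNCaP (adjusted p = 1.51e-04). The mitochondrial outer membrane channel genes VDAC1 and VDAC3 rose in both lines, by 1.34 ± 0.06 and 1.58 ± 0.09 in PC3 and 0.45 ± 0.09 and 0.69 ± 0.14 in LNCaP. VDAC2, whose product is known to hold BAK1 at the membrane, fell by 0.81 ± 0.08 in PC3 and rose by 1.08 ± 0.15 in LNCaP.

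Of the other BCL2 family genes, 6 of 9 tested fell and 1 rose in PC3, and 8 of 10 fell in LNCaP, where 39% and 39.3% of all tested genes fell. BCL2L14 was at 1.22, 1.54 and 1.38 TPM in PC3 parental controls and at 0.08, 0 and 0 TPM in PC3 CE controls, with 122 and 1 summed counts (ratio 0.00717, exact 95% counting interval 1.80e-04 to 0.0407). HRK, a BH3-only gene, had 226 and 11 summed counts in the same groups (ratio 0.0426, interval 0.0210 to 0.0776). BMF, a BH3-only gene tied to the cytoskeleton, fell by 3.94 ± 0.43 in LNCaP (adjusted p = 8.68e-06), from 17.6, 4.71 and 17.3 TPM to 0.66, 0.80 and 0.88 TPM. BNIP3, a mitophagy receptor known as a hypoxia target, was the gene that rose in PC3 (2.698 ± 0.50, adjusted p = 3.96e-04).

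MCL1 protein is known to be marked for destruction by the ubiquitin ligases HUWE1 and FBXW7 and protected by the deubiquitinase USP9X. USP9X rose in CE libraries of both lines, by 1.24 ± 0.09 in PC3 (adjusted p = 1.44e-07) and 1.03 ± 0.11 in LNCaP (adjusted p = 6.02e-06), while HUWE1 (0.85 ± 0.16) and FBXW7 (0.59 ± 0.10) passed in LNCaP. Among inhibitors of apoptosis, 1 of 5 tested rose and 2 fell in each line, and BIRC3 fell in both (-3.08 ± 0.22 and -2.27 ± 0.19). The death receptor list had 2 of 8 higher and 4 lower in PC3, and 2 higher and 2 lower in LNCaP. As background for both lists, 38.5% of all tested genes rose and 39% fell in PC3, and 36% and 39.3% in LNCaP. TNFRSF10A, a TRAIL receptor upstream of BID, fell by 0.80 ± 0.17 in PC3, and in LNCaP its summed counts were 3587 in parental and 4 in CE controls (ratio 0.00111, exact 95% counting interval 3.04e-04 to 0.00286).

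Of 8 genes of the integrated stress response, 0 rose and 3 fell in PC3, and 0 rose and 4 fell in LNCaP. Of all tested genes, 38.5% rose and 39% fell in PC3, and 36% rose and 39.3% fell in LNCaP. The median log2 change of the list was -1.86 in PC3 and -0.82 in LNCaP, against -0.01 and -0.06 over all genes. Whether the list differs from all genes was not tested. ATF3 was among the genes that fell, at -5.43 ± 1.31 and -3.51 ± 0.49. Its CE controls were at 2.04 to 2.26 TPM and 4.37 to 7.64 TPM.

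With Acetalax, 2 of 66 pathway genes rose and 6 fell in PC3 parental cells, and 6 rose and 5 fell in PC3 CE. In LNCaP parental cells 3 of 67 rose and 5 fell, and 4 rose and 2 fell in LNCaP CE. Of all tested genes, 3.49% rose and 4.31% fell in PC3 parental cells, 4.67% and 3.47% in PC3 CE, 4.04% and 4.41% in LNCaP parental cells, and 3.34% and 4.06% in LNCaP CE. The integrated stress response gene ATF4 rose by 1.25 ± 0.35 in PC3 CE (adjusted p = 0.04998), 0.54 ± 0.14 in LNCaP parental cells (adjusted p = 0.0409) and 0.58 ± 0.14 in LNCaP CE (adjusted p = 0.0347). In PC3 CE it was at 1141, 360.5 and 365 TPM against 279, 268 and 282 TPM, and DDIT3 (4.55 ± 1.12, adjusted p = 0.0320) and ATF3 (5.74 ± 1.33, adjusted p = 0.0249) were likewise highest in replicate 1. Without that library and the other libraries that stood apart, these PC3 CE values were far smaller and passed, at 0.48 for ATF4 (adjusted p = 1.26e-04), 1.17 for DDIT3 (adjusted p = 5.44e-04) and 1.86 for ATF3 (adjusted p = 6.46e-04). With it, all 3 calls were lost when only the groups compared were fitted (adjusted p = 0.221, 0.191 and 0.1701). BIRC3 rose in the CE cells of both lines (1.30 ± 0.21 and 2.55 ± 0.19, adjusted p = 0.0049 and 1.08e-04). MYC fell in PC3 parental cells (-0.48 ± 0.07) and in LNCaP parental cells (-2.82 ± 0.39), and rose in PC3 CE (0.61 ± 0.07, adjusted p = 8.53e-04). In PC3 parental cells USP9X fell by 0.63 ± 0.09 (adjusted p = 0.00234) and CASP8 by 0.66 ± 0.16 (adjusted p = 0.0291), and FADD, the adaptor of death receptors, fell by 1.37 ± 0.20 in LNCaP parental cells (adjusted p = 0.00173). Fitting only the groups compared also ended the calls of BIRC3 in PC3 CE (adjusted p = 0.0795) and of FADD, MYC and ATF4 in LNCaP parental cells (adjusted p = 0.0715, 0.0674 and 0.265).

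As a description of pattern, the genes whose log2(TPM + 1) followed each member most closely over the 24 libraries were listed. The 24 points share group, cells and treatment, so they are not independent. TC2N followed BIK (Pearson r 0.991), and BCL2L1 was closest to LINC00957 and HSH2D (0.992 and 0.991), BAX to ARMC9 and HOXD13 (0.991 and 0.990), and PMAIP1 to H1-2 and SERINC3 (0.989 and 0.985). BBC3 and BAK1 had their closest genes at 0.947 (CLCN6) and 0.95003 (SMPD4). With the 8 groups ordered by mean TPM, 7 of 7 neighbouring pairs overlapped in their libraries for BCL2, whereas 3 of 7 pairs overlapped for BCL2L1, BAX, PMAIP1, BBC3 and BIK. For BBC3 the order ran from PC3 parental Acetalax (5.98 ± 0.199 TPM) and PC3 parental controls (7.44 ± 1.12 TPM) through LNCaP parental controls (13.45 ± 7.30 TPM), PC3 CE controls (17.2 ± 1.29 TPM), LNCaP CE controls (21.5 ± 0.465 TPM), LNCaP parental Acetalax (32.3 ± 5.92 TPM) and PC3 CE Acetalax (32.9 ± 9.30 TPM) to LNCaP CE Acetalax (51.3 ± 2.54 TPM), each as mean ± SD over 3 libraries.

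The annotation gives genes on the opposite strand within several members (AL117381.1 and ABALON in BCL2L1, MIR4435-2HG at BCL2L11, GGNBP1 at BAK1 and AC022726.2 in BCL2). Since the strand setting of the counting is not given in the sources used here, reads of these partners cannot be told apart from those of the members. Other genes overlap members on the same strand: ADAMTSL4-AS1 at MCL1, AC022726.1 at BCL2, MIR3191 at BBC3 and MIR3198-1 at BID. A strand setting would not separate their reads. BAX, PMAIP1 and BIK overlapped no other annotated gene in GENCODE 29.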

How the data were processed

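Per the labels' protocols, poly(A) RNA was made into directional libraries and read as pairs of 100 bases on a NextSeq 2000. Per the submitters' processing notes, FastQC, STAR 2.7, RSEM and hg38 were used; the sources used here name neither an annotation release nor a strand setting. The authors deposited 1 table of RSEM expected counts and 1 of TPM, both with 60660 features, of which 1343 share a symbol with another. Of the count values, 10.2% were not whole, so expected counts were rounded. A further 2 columns, of reads with no library index, belong to no sample and were not used. Totals ran from 40160832 to 57728014 counts.

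edgeR 4.0.16 (R 4.3.3) fitted group means to the 12 libraries of a line, or to all 24 for comparisons between lines, with TMM scaling, the package's filter at a minimum count of 10 and Benjamini-Hochberg adjustment over all tested genes at 0.05. Each line's comparisons share control libraries. Alternatives were RLE scaling, no filter, DESeq2 1.42.0, limma 3.58.1 on log2(TPM + 1) or log2(TPM + 0.1), a replicate block, only the groups compared, each library left out, and the libraries that stood apart left out. The edgeR, DESeq2 and limma steps were tested on simulated data. Exact 95% intervals of count ratios cover counting error only. Positions are from GENCODE 29 (58429 features matched by identifier).

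Named genes were all 10 members and, from the pathway lists, for each list and comparison at most the 3 called genes with the largest absolute change; DDIT3 and ATF3, as marks of the libraries that stood apart, were added after their values were seen. For each member with a mean of at least 1 TPM, the 2 genes with the highest correlation were also chosen. Some results under these rules are not reported here. The members and lists were chosen with earlier results of these data known.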

Additional observations from a re-analysis of the deposited data

Results flagged for a closer look

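The response to Acetalax differed between CE and parental PC3 cells by an interaction test for BBC3 (1.49 on the log2 scale) and BCL2L1 (-0.52), and between parental LNCaP and parental PC3 cells for the same genes (1.83 and -0.51). With only the groups compared, the 2 differences between lines did not pass (adjusted p = 0.0580 and 0.120). The PC3 parental libraries enter all 4 values, so these are not independent of each other.

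The change from parental to CE controls differed between the lines for 7 genes, given as LNCaP minus PC3: BCL2 (-1.77), BCL2L1 (0.97), BAX (0.93), BCL2L11 (-1.72), PMAIP1 (-2.64), BID (1.89) and BIK (-2.61). This comparison was chosen after the data were seen, and 56.8% of all tested genes passed in it. By limma on log2(TPM + 1), PMAIP1 (0.17, adjusted p = 0.779) and BAX (0.35, adjusted p = 0.0518) did not pass.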

How the results depend on the processing

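Among 1121 values of the 10 genes under other settings, 1038 kept their side of the threshold, 30 of them called in neither fit and with the other sign, 36 lost the call, 45 gained it and 2 reversed. Both reversals were PMAIP1 in the change from parental to CE, LNCaP minus PC3, at 0.17 by limma on log2(TPM + 1) with and without the filter. Counts of called genes that moved by over 1.5 times were as follows. Without the low-count filter they were 3 for PC3 CE Acetalax, 1 for the PC3 difference of responses, 1 for LNCaP CE Acetalax and 1 for the parental difference between lines. With DESeq2 they were 1, 3 and 4 for PC3 parental, PC3 CE and LNCaP parental Acetalax. With limma on log2(TPM + 1) they were 2 for PC3 CE Acetalax, 0 for LNCaP CE Acetalax and 4 for the CE change between lines, and with log2(TPM + 0.1) they were 2 and 1 for PC3 CE and LNCaP CE Acetalax. Limma without a filter gave 0 for LNCaP parental and LNCaP CE Acetalax and 3 between CE controls. With only the groups compared they were 3, 0 and 0 for PC3 parental, PC3 CE and LNCaP parental Acetalax and 0 for the parental difference between lines. Without the libraries that stood apart they were 3, 3, 7 and 4 for Acetalax in PC3 parental, PC3 CE, LNCaP parental and LNCaP CE, 4 and 4 for the PC3 and LNCaP differences of responses and 1 for the CE difference between lines. The cause was not tested.

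Leaving out each library in turn gave 0 to 3 for PC3 parental Acetalax, 1 to 3 for PC3 CE Acetalax, 8 to 9 for PC3 CE against parental, 1 to 4 for the PC3 difference of responses, 1 to 3 for LNCaP parental Acetalax, 0 to 3 for LNCaP CE Acetalax, 9 to 10 for LNCaP CE against parental, 0 to 0 for the LNCaP difference of responses, 9 to 10 between parental controls, 3 to 6 between CE controls, 1 to 3 and 0 to 0 for the parental and CE differences of responses between lines, and 7 to 8 for the CE change between lines. Whether the replicate numbers pair the samples was not settled. No pair of groups had all 3 correlations of same-numbered deviations over 0.1, but with 3 libraries per group this check cannot exclude shared batches. With the replicate number as a block, counts were 4 in place of 5 between CE controls, where BAK1 was at 0.37 (adjusted p = 0.0664), and the other counts were equal to those without the block. Low counts limit PMAIP1 and BIK in LNCaP CE libraries.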
